A study of Mus musculus with 18 samples.

Results

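Heat shock proteins and their partners were followed as 10 transcripts in neutrophils sorted from mouse lung. The members were taken by gene symbol: the HSP110 family genes Hspa4l, Hspa4 and Hsph1, the HSP70 genes Hspa1a, Hspa1b and Hspa8, the J-domain protein gene Dnajb1, the HSP90 gene Hsp90aa1, and the mitochondrial chaperonin genes Hspd1 and Hspe1. They are 10 of 40481 gene identifiers counted, and all 10 were among the 16575 genes with enough reads to test. The 18 libraries fell into 6 groups of 3, all from C57BL/6 mice. Wild-type (WT) mice were set against CGD mice, in which Cybb is knocked out. Cybb makes the gp91phox part of the enzyme with which phagocytes produce superoxide, and mice without it are a model of chronic granulomatous disease. Zymosan, a yeast cell wall preparation, was given into the nose at 20 µg to female mice of 13 weeks, and the lungs were taken 24 hours later. From these lungs the live CD45+ CD11b+ Ly6G+ cells were divided by the surface protein CD101 into CD101pos and CD101neg cells, which the labels describe as mature and immature neutrophils. Naive male mice of 12 weeks gave CD101pos cells, and no naive CD101neg library was analysed here. The lungs were digested with collagenase and DNase in the warm before sorting, in every group. The labels do not say whether libraries of a group came from different mice, and p-values here rest on a spread between libraries that may be technical only.

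Chaperones of the HSP70 class bind stretches of unfolded protein and release them through a cycle of ATP binding and hydrolysis. J-domain proteins such as Dnajb1 bring the client and trigger hydrolysis, and HSP110 proteins act as exchange factors that let ADP go so that the cycle can start again. HSP90 takes over clients at a later stage of folding, and the mitochondrial ring of Hspd1 with its lid Hspe1 folds proteins imported into the matrix. Several of these genes are classical targets of heat shock factor HSF1, which binds repeats of GAA and its reverse complement in their promoters; Hspa8 is the form made constantly in most cells. Warm enzymatic digestion of tissue is known to raise immediate early and heat shock transcripts.

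Promoter sequences are shown because the members divided by expression pattern, described further on, and some windows match the letters of the GAA repeat. RefSeq windows (GRCm38.p6) of 300 bases, from 250 before the transcription start to 50 from the start on, were at hand for 8 of the 10 members; those of Hspa8 and Hsp90aa1 were not used here. Hspd1, Hsph1 and Dnajb1 have 2 annotated starts and so 2 windows each. On both strands they were searched for the 3-unit forms GAANNTTCNNGAA and TTCNNGAANNTTC and for the 2-unit forms GAANNTTC and TTCNNGAA, which also lie inside the 3-unit forms. Below, in the direction of transcription, capitals mark every match. Hspa1a is at chr17:34972107-34972406 and Hspa1b at chr17:34959189-34959488, both on the minus strand. Hsph1 is at chr5:149636287-149636586, minus strand. Hspe1 is at chr1:55087898-55088197, plus strand, and Hspa4l at chr3:40745363-40745662, plus strand.
Hspa1a: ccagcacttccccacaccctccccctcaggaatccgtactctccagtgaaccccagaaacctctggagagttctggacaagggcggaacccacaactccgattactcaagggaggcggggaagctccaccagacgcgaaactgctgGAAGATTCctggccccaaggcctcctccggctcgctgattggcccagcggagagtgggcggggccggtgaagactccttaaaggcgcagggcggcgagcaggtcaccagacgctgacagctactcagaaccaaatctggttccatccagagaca
Hspa1b: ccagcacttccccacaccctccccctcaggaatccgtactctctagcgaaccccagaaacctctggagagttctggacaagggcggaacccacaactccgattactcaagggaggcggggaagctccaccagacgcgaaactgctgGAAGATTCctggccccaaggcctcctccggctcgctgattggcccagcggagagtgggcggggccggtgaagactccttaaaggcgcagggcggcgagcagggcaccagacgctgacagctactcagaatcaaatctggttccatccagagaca
Hsph1: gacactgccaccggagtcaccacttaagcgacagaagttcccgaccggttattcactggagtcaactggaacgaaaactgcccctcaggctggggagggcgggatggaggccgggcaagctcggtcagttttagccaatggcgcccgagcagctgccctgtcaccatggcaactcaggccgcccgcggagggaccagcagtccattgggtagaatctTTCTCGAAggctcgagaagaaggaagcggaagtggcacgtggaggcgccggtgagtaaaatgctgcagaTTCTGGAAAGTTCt
Hspe1: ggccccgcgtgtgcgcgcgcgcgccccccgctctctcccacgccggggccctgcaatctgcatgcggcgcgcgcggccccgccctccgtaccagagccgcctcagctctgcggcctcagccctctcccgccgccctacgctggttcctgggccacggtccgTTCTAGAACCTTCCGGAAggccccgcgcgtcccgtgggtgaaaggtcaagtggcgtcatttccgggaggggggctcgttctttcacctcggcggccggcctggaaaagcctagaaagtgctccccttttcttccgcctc
Hspa4l: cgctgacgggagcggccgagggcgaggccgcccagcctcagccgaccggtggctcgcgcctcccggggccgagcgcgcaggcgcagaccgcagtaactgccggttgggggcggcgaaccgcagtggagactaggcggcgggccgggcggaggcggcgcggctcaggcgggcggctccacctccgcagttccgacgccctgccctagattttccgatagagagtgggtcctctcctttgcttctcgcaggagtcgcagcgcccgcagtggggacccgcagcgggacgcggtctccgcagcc
The Hspa1a and Hspa1b windows were alike at 296 of 300 bases, and each held the 2-unit form GAANNTTC at positions -104 to -97 from the start. The Hsph1 window printed held a 3-unit form at positions 36 to 48 and a separate TTCNNGAA at -33 to -26, and its second window covers the same matches. One Hspd1 start lies 216 bases from the Hspe1 start on the other strand, and its window shares 285 bases with that of Hspe1. The overlapping 3-unit matches in the Hspe1 window are therefore those of this Hspd1 window read from the opposite strand. The other Hspd1 start is nearer to Hspe1, and its window shares 4 bases with that of Hspe1 and held no match. No match was found in the windows of Hspa4l, Hspa4 and Dnajb1 either, which says only that these letters are absent there. A 3-unit form was present in 0.603% of 32851 promoter windows of the same length and a 2-unit form in 15.1%.

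Across the 18 libraries the counts assigned to genes ran from 33713174 to 67939826, of which the members took 0.0842% to 0.198%. Cybb, the disrupted gene, stood at 29.6 to 59.5 CPM (the count divided by the TMM-scaled library size in megareads) in the CGD libraries and at 126 to 283 in the WT libraries. Cd101 was lower in CD101neg than in CD101pos libraries within each genotype, but the CGD CD101pos libraries after zymosan (95.9 to 112 CPM) lay below the WT CD101neg libraries (156 to 185 CPM). The sort was made on surface protein, and the labels are kept as given. All 12 neutrophil markers of a list were detected in every library, S100a8 at 8889 CPM or more. The neutrophil markers summed to 53084 to 124165 CPM in the CGD CD101neg libraries and to 19277 to 85889 in the WT CD101neg libraries. All 10 listed macrophage markers were tested and summed to 386 to 587 CPM in the CGD CD101neg libraries against 754 to 866 in the WT ones, with Marco at 0 in 1 of the 18 libraries. Of 6 B cell markers, which summed to 25.6 to 40.7 against 97.7 to 117 CPM in the same groups, Pax5 was at 0 in 6 libraries. Of 5 lung epithelial markers none was at 0 in any library; their sums ran from 269 to 502 CPM in the CGD CD101neg libraries and from 409 to 866 in the WT ones. The part of these other cells in the results below was not tested. In bulk samples, fewer cells of a type and less RNA per cell cannot be told apart.

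The members covered a wide range of levels. Per kilobase of exon, Hspa8 had the highest median level over the 18 libraries, 208 CPM per kb, followed by Dnajb1 at 34.6, Hsp90aa1 at 19.4 and Hspd1 at 9.47. Hspa4 (6.42), Hspe1 (5.59), Hspa1a (3.29) and Hspa4l (3.26) followed, and the lowest levels per kb were those of Hspa1b (0.566) and Hsph1 (0.434). Exon lengths came from GENCODE M21, and these levels are approximate because the counting annotation was not stated. The spread between libraries was largest at the bottom of this order: the highest CPM was 19.6 times the lowest for Hsph1, 10.7 times for Hspa1b and 9.60 times for Hspa1a, against 1.95 times for Hspa8. Hspa4l was the exception among the well-counted genes, with a ratio of 7.23. Low counts limit the precision of Hsph1 (18 reads in its lowest library) and Hspa1b (22 reads). Hspa1a and Hspa1b also share sequence: 58.8% of the 50-base windows of Hspa1a occur in Hspa1b, so their separate counts are uncertain. Other annotated genes hold 73.2% of the 50-base windows of Hspa8, 58.5% of Hsp90aa1, 44.8% of Hspd1 and 36.1% of Hspe1, whereas Hspa4 and Hsph1 share none and Hspa4l 0.626%. Hspa1a overlaps Gm20481 on the opposite strand over 564 exon bases, and Hspd1 overlaps Hspe1 over 112; whether counting used strand is not given in the sources used here.

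**Figure D1:**
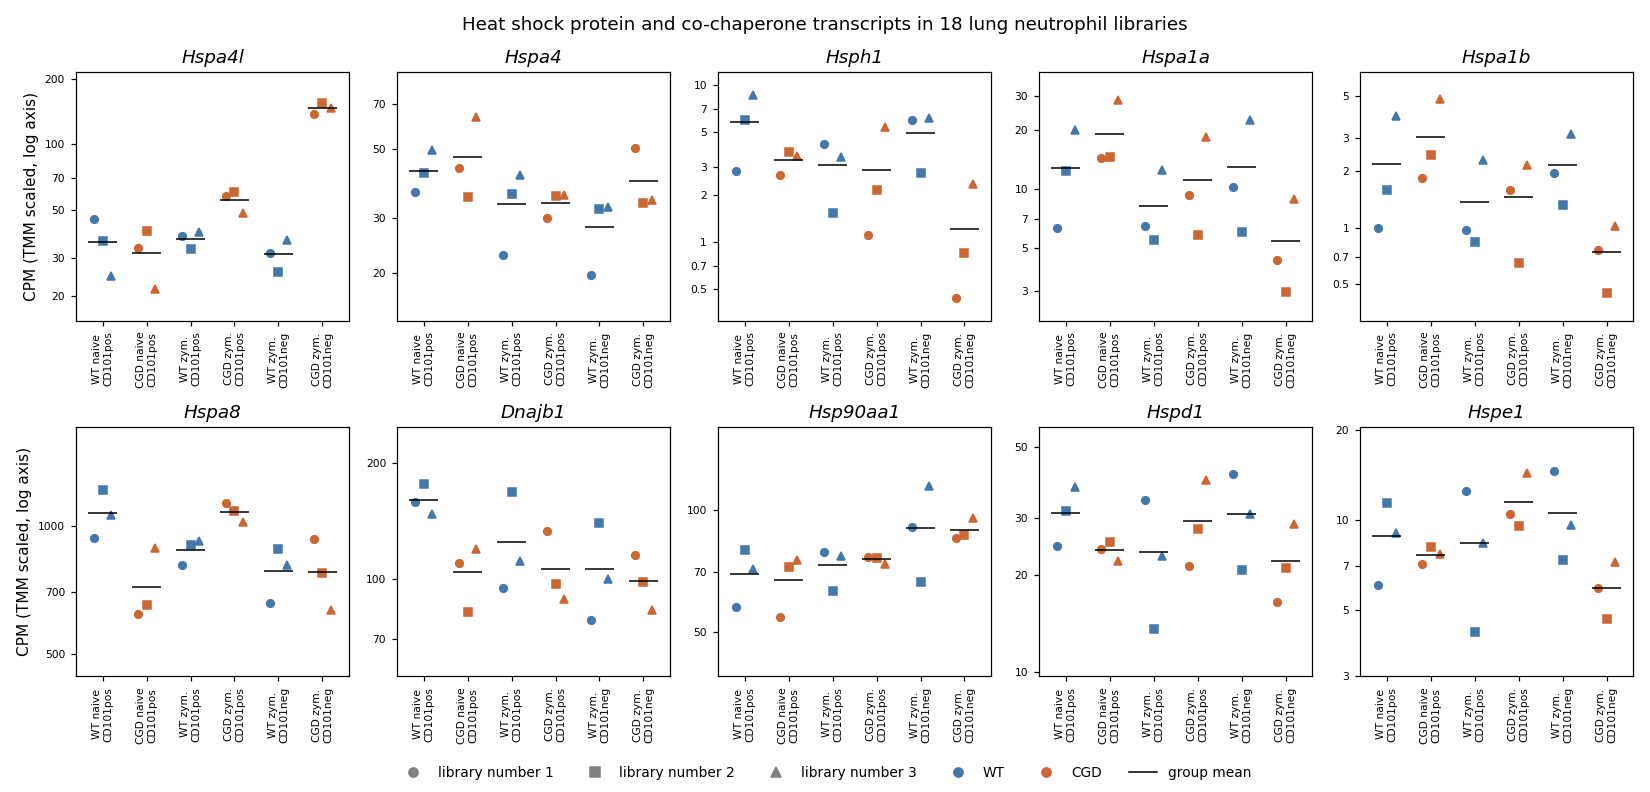
CPM of the 10 members on log axes in each of 18 libraries, with the 6 groups along the horizontal axis, blue for WT, orange for CGD, marker shapes for the number in the library title and bars for group means. The 3 CGD CD101neg libraries sit at 138 to 155 CPM for Hspa4l, above every other library, and at 0.442 to 2.34 CPM for Hsph1, below the 3 WT CD101neg libraries.

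The HSP110 family split in opposite directions between the genotypes in CD101neg cells after zymosan: Hspa4l was higher in CGD, Hsph1 was lower, and Hspa4 did not pass the test. Hspa4l stood at 138, 155 and 148 CPM in the CGD CD101neg libraries and at 31.6, 25.7 and 36.1 CPM in the WT ones. The lowest CGD library was thus well above the highest WT library, a separation that 14.7% of all genes had in this direction. The log2 fold change was 2.24 ± 0.24 (SE, n = 3 against 3), a 4.72-fold difference, with an adjusted p of 1.29e-05 in edgeR's quasi-likelihood test after Benjamini-Hochberg adjustment over 16575 genes. Hsph1 stood at 0.442, 0.855 and 2.34 CPM in CGD and at 5.96, 2.74 and 6.15 CPM in WT. These groups did not overlap either, as was so for 15.3% of all genes in the direction of lower in CGD. The closest libraries of Hsph1 were only 2.34 and 2.74 CPM. The log2 fold change was -2.03 ± 0.61 with an adjusted p of 0.0359 by the same edgeR test. Hspa4, the third family member, had 50.4, 33.7 and 34.4 CPM in CGD and 19.7, 32.1 and 32.6 CPM in WT. Its groups did not overlap, with CGD higher, and the closest libraries were 33.7 and 32.6 CPM. The log2 fold change of Hspa4, 0.49, had a 95% confidence interval from -0.08 to 1.06 and did not pass (edgeR adjusted p 0.23). The Hspa4l call held with each of the 18 libraries left out, at log2 fold changes of 2.12 to 2.36. The Hsph1 call was lost without CGD CD101neg replicate 1 (-1.68, edgeR adjusted p 0.112) or replicate 2 (-1.83, 0.136), and without WT CD101neg replicate 1 (-1.87, 0.0998) or replicate 3 (-1.85, 0.096). It was also lost with no low-count filter (-2.08, 0.121) and with only the compared groups in the fit (-1.99, 0.0663).

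The 2 of 10 members called stand beside a background of 12.9% of all genes called in this comparison, 6.67% higher and 6.24% lower in CGD. The members' median log2 fold change was -0.29, against -0.08 for all genes, with 2 positive and 8 negative values. The stress-inducible HSP70 genes Hspa1a and Hspa1b, which were counted in every library, did not pass. Hspa1a had 4.32, 2.95 and 8.87 CPM in CGD against 10.2, 6.01 and 22.6 in WT, a log2 fold change of -1.27 ± 0.56 (edgeR adjusted p 0.145). Its groups overlapped. Hspa1b had 0.762, 0.448 and 1.02 CPM in CGD against 1.96, 1.32 and 3.15 in WT, a log2 fold change of -1.53 ± 0.58 (edgeR adjusted p 0.0909). Hspe1, the lid of the mitochondrial chaperonin, had 5.90, 4.66 and 7.21 CPM in CGD against 14.6, 7.33 and 9.61 in WT, a log2 fold change of -0.83 ± 0.34 (edgeR adjusted p 0.114). The groups of Hspa1b and Hspe1 did not overlap, as was so for 15.3% of all genes in the direction of lower in CGD. Hspd1, the ring subunit, gave -0.48 ± 0.31 and did not pass. The abundant members lay close to 0: Hspa8 at -0.01, Hsp90aa1 at -0.02 and Dnajb1 at -0.10, with confidence intervals of -0.43 to 0.42, -0.45 to 0.40 and -0.63 to 0.44. Scaling by library size alone, without TMM factors (0.702 to 0.809 in the CGD CD101neg libraries, 0.933 to 1.20 in the WT ones), moved the median of all genes to -0.57. Under that scaling 7 members were called, 6 of them lower, beside 24% of all genes called, and Hspa4l stood at 1.74.

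**Figure D2:**
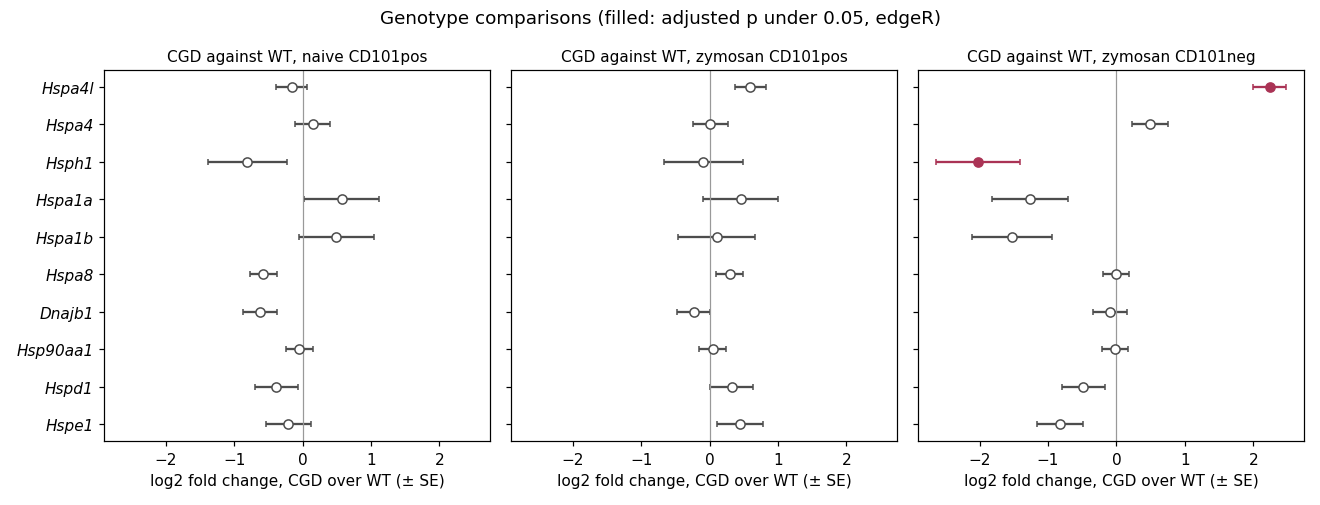
Log2 fold change of CGD over WT with its standard error for each member, with a panel each for naive CD101pos, zymosan-treated CD101pos and zymosan-treated CD101neg cells, 3 libraries against 3 in each panel, filled where the edgeR adjusted p was under 0.05. Only Hspa4l (2.24) and Hsph1 (-2.03) are filled, both in CD101neg cells.

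In CD101pos cells after zymosan, none of the 10 members passed, beside 5.3% of all genes called. Hspa4l came nearest, with 57.6, 60.3 and 48.1 CPM in CGD and 37.6, 32.7 and 39.3 CPM in WT. The groups did not overlap, and the log2 fold change was 0.60 ± 0.23 (edgeR adjusted p 0.157, unadjusted p 0.0177). That was the only member with an unadjusted p under 0.05 in this comparison, and DESeq2 also called 0. Hspa8, the constant HSP70, also had groups that did not overlap, at 1127.4, 1080.6 and 1018.5 CPM in CGD against 808, 902 and 919 in WT, with a log2 fold change of 0.30 ± 0.20. For higher in CGD, 12% of all genes had groups that did not overlap here.

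In naive CD101pos cells no member passed, beside 0.127% of all genes called (21 genes; edgeR). Of the members, 2 had an unadjusted p under 0.05, and DESeq2 also called 0 of 10. Hspa8 had 621, 651 and 886 CPM in CGD against 937, 1212.8 and 1059.9 in WT, a log2 fold change of -0.57 ± 0.20 (edgeR adjusted p 0.465). Dnajb1, the J-domain partner of HSP70, had 109.9, 82.5 and 120.0 CPM in CGD against 159, 176 and 147 in WT, a log2 fold change of -0.63 ± 0.25 (edgeR adjusted p 0.627). Neither gene's groups overlapped, as was so for 7.2% of all genes in that direction.

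Hspa4l also differed between the CD101 subsets, in CGD and not in WT. In CGD it was higher in CD101neg than in CD101pos cells in 3 of 3 pairs of libraries with the same number, with a log2 fold change of 1.41 ± 0.23 (edgeR adjusted p 0.00213). Without the 6 libraries numbered 3 the value was 1.27 and the call was lost (edgeR adjusted p 0.0736). In WT it was lower in CD101neg cells in 3 of 3 pairs, at -0.23 ± 0.23, and did not pass. The difference between the genotypes in the subset effect was 1.64 ± 0.33 on the log2 scale (interaction, edgeR adjusted p 0.0213), in a test that called 0.851% of all genes. The interaction call was lost on leaving out any of 5 libraries, namely CGD CD101neg replicates 2 and 3, CGD CD101pos replicate 3, WT CD101neg replicate 1 and WT CD101pos replicate 3, with values of 1.54 to 1.65 and adjusted p from 0.0534 to 0.0734. It was also lost under scaling by library size alone, where the value was 1.20 against a median of all genes of -0.45. Hspa4l was the only member called among CGD subsets (background 7.35%) and in the interaction.

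For 5 other members the pairs of same-numbered libraries went opposite ways in the genotypes. As an interaction, this pattern did not pass in the unblocked fit (edgeR adjusted p 0.222 to 0.418). With the library number as a block within genotype, all 5 passed (edgeR adjusted p 0.000509 to 0.018). That blocked fit called 14.1% of all genes in the interaction. Hspa1a, Hspa1b, Hsph1, Hspd1 and Hspe1 were each higher in CD101neg cells in 3 of 3 WT pairs and lower in 3 of 3 CGD pairs. This was 5 of 10 members, and 5.24% of all 16575 genes had that pattern. In CGD the numbers did not meet the rule used for pairing, which was applied over all genes, so there a pair may share only its number. Markers of other cells differed between the subsets as well. The macrophage markers summed to 629 to 885 CPM in CGD CD101pos and 386 to 587 in CGD CD101neg libraries, with 6 of 10 lower in CD101neg, and to 793 to 1017.8 and 754 to 866 in the WT libraries, with 0 of 10 called. In the interaction 5 of 10 were lower. Between the genotypes in CD101pos cells, 5 of 10 were called higher in CGD and 1 lower, which the sums do not show. The part of these markers in the members' values was not tested. The opposite pattern, that of Hspa4l, was shown by 5.53% of genes. Hsph1 gives the clearest example: from CD101pos to CD101neg it went from 4.22 to 5.96, 1.54 to 2.74 and 3.49 to 6.15 CPM in the WT pairs, and from 1.12 to 0.442, 2.15 to 0.855 and 5.41 to 2.34 CPM in the CGD pairs. The pairs differed widely in level and little in the size of the step, which in CGD was -1.34, -1.33 and -1.21 on the log2 scale. Hspe1 went from 12.5 to 14.6, 4.20 to 7.33 and 8.39 to 9.61 CPM in WT, and from 10.4 to 5.90, 9.52 to 4.66 and 14.3 to 7.21 CPM in CGD. Hspa1a had steps of 0.67, 0.13 and 0.86 in WT and of -1.10, -0.97 and -1.05 in CGD. Hsp90aa1, in contrast, was higher in CD101neg cells in all 6 pairs and Hspa8 lower in all 6. None of the 5 genes passed in the comparison of WT subsets, where edgeR and DESeq2 each called 0 members, 0 had an unadjusted p under 0.05 and 0.44% of all genes were called. In WT the numbers met the rule used for pairing, though the labels do not say whether a pair shares a mouse. With that number as a block edgeR called 3 members higher in CD101neg cells, beside 5.05% of all genes higher. These were Hspa1a at 0.56 ± 0.18 (adjusted p 0.0473), Hsph1 at 0.70 ± 0.22 (0.0463) and Hspd1 at 0.42 ± 0.13 (0.0466).

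**Figure D3:**
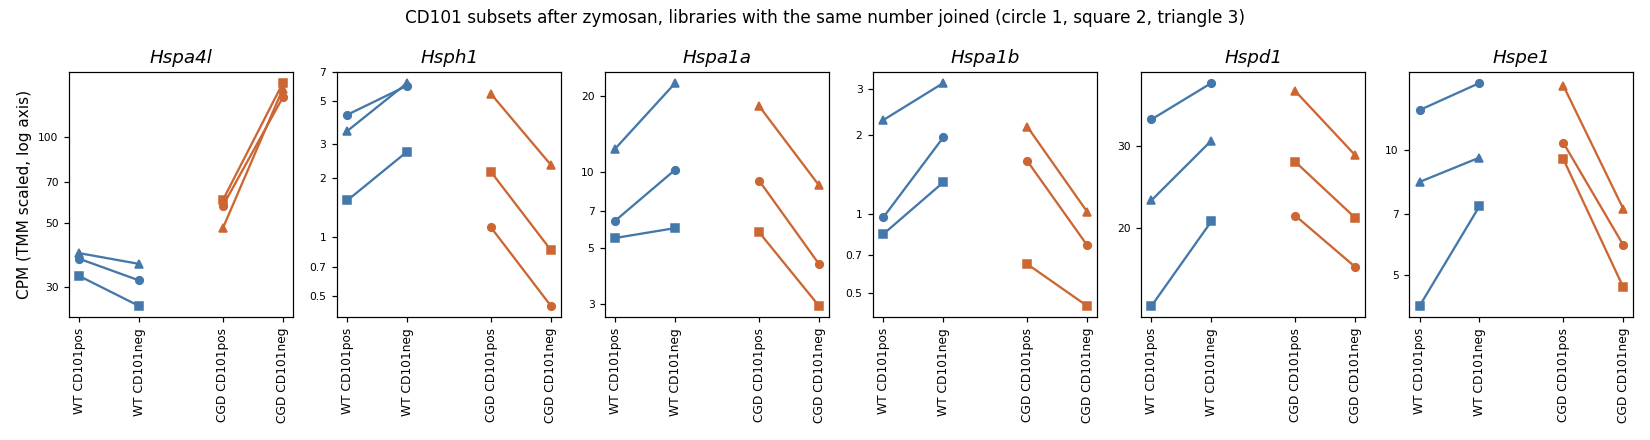
CPM on log axes of 6 members in CD101pos and CD101neg libraries after zymosan, with lines joining libraries of the same genotype and number, blue for WT and orange for CGD. Lines for Hsph1, Hspa1a, Hspa1b, Hspd1 and Hspe1 go up in 3 of 3 WT pairs and down in 3 of 3 CGD pairs, and lines for Hspa4l do the reverse.

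The 5 genes with this pattern were also those, of the 8 members with promoter windows, that had a 2-unit or 3-unit GAA repeat in at least 1 window; Hspd1 had it in 1 of 2 windows, and the windows of Hspa4l, Hspa4 and Dnajb1 held none. The coincidence was noticed after the values were seen, the Hspd1 window with matches is largely the same region as that of Hspe1, those of Hspa1a and Hspa1b are near copies, and a match is not evidence of binding. Across the 18 libraries Pearson's r of log2 CPM was 0.952 for Hspa1a with Hspa1b, 0.829 for Hspd1 with Hspe1 and 0.780 for Hsph1 with Hspd1. After subtracting group means these were 0.931, 0.856 and 0.889, so the genes also varied together within groups. The points share libraries, and the first pair shares sequence. Dnajb1 went against Hspd1 within groups, with r of -0.896. Hspa1a and Hspa1b were at their highest in the library numbered 3 in 6 of 6 groups, for example at 28.3 CPM against 14.3 and 14.5 for Hspa1a in naive CGD cells. The labels do not say what the number marks across groups.

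Zymosan was compared with the naive state in CD101pos cells only, and there the treated mice were female and the naive mice male and a week younger, so treatment, sex and age cannot be told apart. In CGD, Hspa4l was higher after zymosan, at 57.6, 60.3 and 48.1 CPM against 33.2, 40.0 and 21.4, with groups that did not overlap (16.1% of all genes in that direction). The log2 fold change was 0.81 ± 0.23 (edgeR adjusted p 0.0253), and 1 of 10 members called compares with 12.8% of all genes. This call was lost without CGD naive replicate 1 (0.85) or 3 (0.58), without CGD zymosan CD101pos replicate 1 (0.77) or 2 (0.75), without all libraries numbered 3 (0.70), and under scaling by library size alone (0.52), with adjusted p from 0.061 to 0.213. Hspa8 in CGD rested just above the threshold at 0.58 ± 0.20 (edgeR adjusted p 0.0589). In WT no member passed, 0 had an unadjusted p under 0.05, DESeq2 called 0 members, and 3.79% of all genes were called by edgeR. Hspa4l gave 0.05 ± 0.23 in WT, and the difference between genotypes in the response, 0.76 ± 0.32, did not pass (edgeR adjusted p 0.4). For Hspa8 that difference was 0.87 ± 0.28 (edgeR adjusted p 0.243), with 0.32% of all genes called; 2 members had an unadjusted p under 0.05 in that test and DESeq2 called 0. The naive and zymosan CD101pos libraries serve in several of these comparisons, so their values are not independent.

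Beyond the members, 88 of 89 listed chaperone, co-chaperone and HSF genes could be tested. In CD101neg cells 3 were higher and 9 lower in CGD, beside 6.67% of all genes higher and 6.24% lower. With both directions together the share called was close to the background of 12.9%, but more were lower than higher. The median log2 fold change of the 88 was -0.18 against -0.08 for all genes. Of 18 HSP90 co-chaperones 1 was higher and 2 were lower. Fkbp5, an immunophilin that binds HSP90 in steroid receptor complexes and is induced by glucocorticoids, was at 43.4 ± 6.07 CPM in CGD and 11.7 ± 3.07 in WT (SD, n = 3), a log2 fold change of 1.89 (edgeR adjusted p 0.000324). Its relative Fkbp4 was at 4.65 ± 0.307 against 14.9 ± 3.22 CPM, a log2 fold change of -1.68 (edgeR adjusted p 0.000939). Cacybp was lower by a log2 fold change of -0.86. In the endoplasmic reticulum, 1 of 12 listed chaperones rose and 2 fell: Hspa5, the resident HSP70, was at 1577.9 against 955 CPM (log2 fold change 0.72), and the disulfide isomerase Pdia4 at 16.5 against 37.0 CPM (-1.17). Of 15 other J-domain genes 1 rose, Dnajb2, by 0.65, and none fell. Among 6 small heat shock proteins none rose and 2 fell, of which Cryab gave -1.02. Of 8 subunits of the cytosolic chaperonin 1 fell, Cct4, by a log2 fold change of -0.62, and 7 of 8 values were negative. Of 10 mitochondrial chaperones and proteases 1 fell and none rose, with 8 negative values. Of 4 HSF factors and regulators 1 fell and none rose. All 4 values were negative, with a median log2 fold change of -0.73 against -0.08 for all genes. Hsf1 itself was at 6.72 against 8.36 CPM (-0.31, edgeR adjusted p 0.518) and passed in none of the 9 comparisons.

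**Figure D4:**
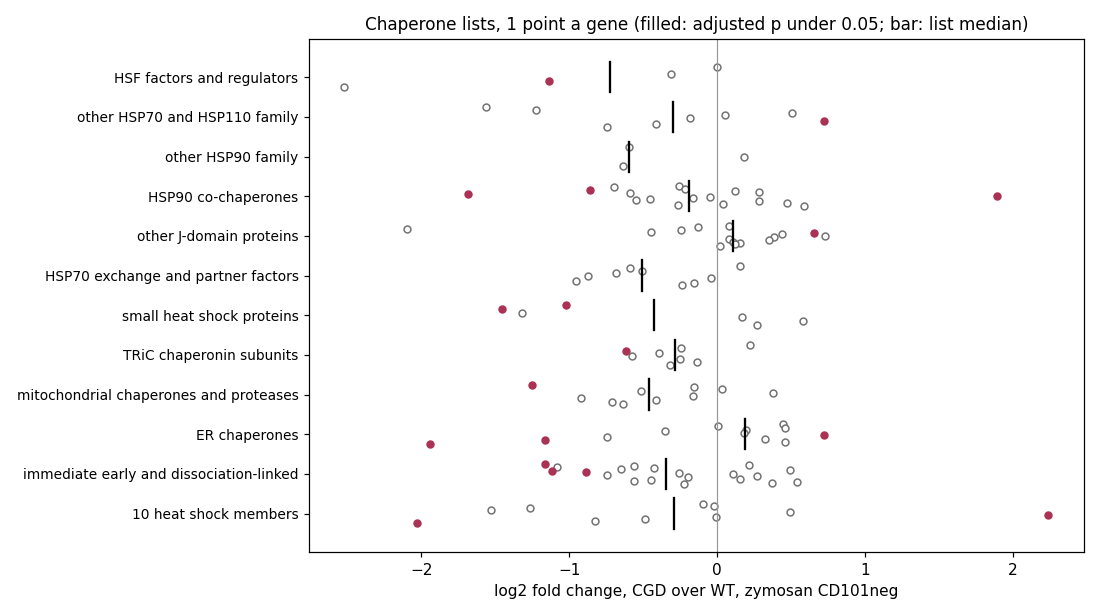
Log2 fold change of CGD over WT in CD101neg cells after zymosan for each tested gene of 11 lists and for the 10 members, with a bar at the list median and filled points where the edgeR adjusted p was under 0.05. Calls lie in both directions, more of them lower than higher, with Hspa4l (2.24) and Fkbp5 (1.89) farthest to the right among filled points.

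Immediate early genes, which dissociation can induce, fell in 3 of 20 cases and rose in none in the same comparison, against a background of 6.24% lower. Fos was at 1089.5 against 2363.9 CPM (log2 fold change -1.12), Fosb at 287 against 529 CPM (-0.89) and Atf3 at 242.3 against 544 CPM (-1.17). Their part in the values of the heat shock genes was not tested. In CD101pos cells Fos (-0.99) and Fosb (-1.28) fell and Socs3 (0.82) rose, while no heat shock member passed. The genes with the pattern most like the mean of the 10 members over the 18 libraries, among 5113 protein-coding genes of at least 10 CPM, were Hsp90ab1 (Pearson's r 0.704), Cct4 (0.693), mt-Atp6 (0.683), Bag3 (0.665) and Cacybp (0.664). Those most like Hspa4l, looked up after its values were seen, were Sec61a1 (0.943), Neu1 (0.943), Tmem63a (0.935), Stx6 (0.935) and Irak3 (0.922).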

How the data were processed

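Bulk RNA was sequenced from 18 sorted neutrophil samples. The authors deposited a table of raw counts with 1 line a gene. STAR 2.5.1a, Subread and featureCounts 1.4.6-p5 are named in the submitters' processing notes; genome build, annotation and strand use remain not given in the sources used here. Libraries were made with a SMARTer kit from total RNA, per the labels' protocols. Of 40757 lines, 276 repeated a gene and were dropped. Genes were filtered with filterByExpr by group (16575 kept), scaled with TMM, and tested in 1 edgeR 4.0.16 quasi-likelihood fit with robust dispersion (R 4.3.3) over all 6 groups, with 12 residual degrees of freedom; SE is the log2 fold change over the root of F. A call is a Benjamini-Hochberg adjusted p under 0.05 over all genes tested. The script was tested on simulated data. CPM use TMM factors; per-length levels divide by GENCODE M21 exon length.

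The members and lists were chosen with earlier results of these data known. All 10 members are named; from other lists, up to 3 genes a comparison with the lowest adjusted p and at least 10 CPM, and Hsf1. The nearest genes are the 5 protein-coding genes with the highest r. Replicate numbers come from the sample titles. The rule for pairing subsets was a correlation over 0.1, over all genes, between same-numbered libraries in all pairs, after subtracting group means. The WT subsets met it at 0.487, 0.425 and 0.312. Whether the numbers mark shared mice is not stated. Alternatives were DESeq2 1.42.0, RLE or library-size scaling, no filter, only the groups compared, leaving out each library, the replicate block, and, chosen after seeing the data, a block shared by all groups and omission of the libraries numbered 3. No table of proteins was used.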

Additional observations from a re-analysis of the deposited data

Results flagged for a closer look

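The effect of CD101 subset on Hspa4l differed between genotypes after zymosan, with an interaction of 1.64 on the log2 scale (edgeR adjusted p 0.0213). It was higher in CD101neg cells in 3 of 3 CGD pairs and lower in 3 of 3 WT pairs.

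For 5 other members every same-numbered pair of one genotype moved one way and every pair of the other the opposite way, as did 5.24% of all genes. Their interactions were -1.72 for Hspa1a, -1.63 for Hspa1b, -1.94 for Hsph1, -0.81 for Hspd1 and -1.28 for Hspe1. In the unblocked edgeR test none of these passed, with adjusted p of 0.326, 0.366, 0.296, 0.418 and 0.222. With the library number as a block within genotype, all 5 passed, with adjusted p of 0.000509, 0.018, 0.000739, 0.0058 and 0.00137, in a fit that called 14.1% of all genes. In CGD the numbers did not meet the rule used for pairing, which was applied over all genes.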

How the results depend on the processing

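Of 2280 recomputed member values over 26 alternative settings, no called value changed sign, and 84 uncalled values did. For CGD against WT in CD101neg cells, 2 members were called; the count was 7 with library size only, 1 without a low-count filter and 1 with only the groups compared (Hsph1 lost in both), 4 with the block shared by all groups, and 1 to 2 on leaving out each library. For the CGD subsets, 1 was called; the count was 2 with library size only, without the filter, with only the groups compared or with the shared block, 0 without the libraries numbered 3, and 1 to 2 on leaving out each library. Zymosan in CGD had 1 member called, Hspa4l. The count was 2 by DESeq2, 3 with the shared block, 0 without the libraries numbered 3, and 0 to 2 on leaving out each library. With library size only the 1 member called was Hspa4, lower after zymosan (-0.70, edgeR adjusted p 0.0445), in place of Hspa4l. Without CGD naive replicate 3 it was Hspa8, higher (0.74, edgeR adjusted p 0.0324), in place of Hspa4l. Zymosan in WT had 0, and 2 (Hspa8 and Dnajb1, lower) with library size only. The interaction with subset had 1; it had 0 with library size only or without the libraries numbered 3, and 0 to 1 on leaving out each library. With the shared block, 13.1% of all genes were called for CGD against WT in CD101neg cells. The shares were 8.17% for the CGD subsets and 13.4% for zymosan in CGD. With library size only, these 3 shares were 24%, 7.51% and 16.6%, and zymosan in WT had 5.32%. The cause of the changes in calls was not tested.

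The replicate block within genotype gave 3 members for the WT subsets in place of 0, 7 for the CGD subsets in place of 1, and 6 for the interaction in place of 1. In CGD, deviations of same-numbered libraries correlated over all genes at 0.236, 0.0245 and 0.26, so there the samples may share only a number. Over the members alone these correlations were 0.862, 0.918 and 0.955 in CGD, and 0.954, 0.872 and 0.842 in WT. Between naive and zymosan CD101pos libraries, from mice of different sex, same-numbered values over the members ran from -0.473 to 0.86. The highest of these, 0.86 and 0.843, were both with WT naive replicate 3. The rule used for pairing rests on all genes and not on values over the members. Whether same-numbered libraries share a mouse was not tested. With the block, calls over all genes went from 73 to 1741, from 1218 to 3924 and from 141 to 2229. The blocked calls were 11%, 24.8% and 14.1% of the 15791 genes tested in that fit. The other comparisons cannot take this block.

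Calls over all genes ranged, apart from the block within genotype, from 692 to 3985 for CGD against WT in CD101neg cells (2139 as reported; fewest without the libraries numbered 3, most with library size only), from 100 to 1402 in CD101pos (878) and from 2 to 107 in naive cells (21), with most by DESeq2. For zymosan they ranged from 117 to 1220 in WT (629) and from 854 to 2790 in CGD (2128). Leaving out 1 library gave 3 to 400 for the WT subsets (73), 321 to 1358 for the CGD subsets (1218), 43 to 497 for the interaction with subset (141) and 5 to 64 for that with zymosan (53); without the libraries numbered 3, the last 3 counts were 14, 2 and 0 in edgeR (994 genes at an unadjusted p under 0.05 for the last). With library size only, 10.4% of calls in the CD101neg comparison were higher in CGD, against 51.7%, and 6.59% against 44.5% for the CGD subsets. For zymosan that share was 30% against 76.9% in WT and 26.5% against 55.5% in CGD, where the median of all genes moved to -0.33 and -0.24. For the CGD subsets it moved to -0.34 and for the WT subsets to 0.13. Low counts of their own limit Hsph1 and Hspa1b.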

Other observations

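After zymosan, CD101pos cells of CGD mice had 5 of 12 listed endoplasmic reticulum chaperones higher than in naive cells and none lower, beside a background of 7.13% of all genes higher. In WT none of the 12 passed, with 10 positive values. In the CGD comparison 6 of 10 macrophage markers were higher and 1 lower, and 5 of 6 B cell markers were lower; their part was not tested. Hspa5, which binds unfolded proteins in that compartment, was at 1538.1 against 876 CPM, a log2 fold change of 0.81 (edgeR adjusted p 0.00728). The disulfide isomerases Pdia6 (133 against 67.3 CPM) and Pdia4 (39.5 against 17.8 CPM) gave 0.98 and 1.15. Hspa13, an HSP70 relative, rose by 1.14 in CGD and by 0.98 in WT on the log2 scale (edgeR adjusted p 0.000721 and 0.00687). Fkbp5 rose by 1.61 and Stip1, the adaptor between HSP70 and HSP90, by 0.75 in CGD. Sex and age differ between the naive and treated groups, as above, and none of the listed endoplasmic reticulum chaperones passed in the interaction of genotype with zymosan.

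From CD101pos to CD101neg cells of CGD mice, Pdia4 fell by 1.26 and Dnajc3 by 0.62 on the log2 scale, and Fkbp4 fell by 1.35 (edgeR adjusted p 0.0247, 0.0215 and 0.00995). Cct6a, a subunit of the cytosolic chaperonin, fell by 0.90.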
